A study of Mus musculus with 7 samples.

Results

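The genes described here are 34 chaperones, folding enzymes, translocon subunits and stress-response genes of the endoplasmic reticulum (ER). They were taken by gene symbol from a fixed list, which was chosen with earlier results of these data known. All 34 were found, each on 1 of the 23282 rows of the tables. Their transcripts were counted from reads of the 3′ ends of polyadenylated RNA (QuantSeq), prepared from whole uterine tissue of C57BL/6 female mice that were 6 weeks old. Recombinant human CXCL12, a chemokine, had been infused at 100 ng in saline into the cavity of 1 uterine horn and saline alone into the other horn. The 7 libraries fall into 2 saline libraries, 2 CXCL12 libraries at Day 3 after infusion and 3 CXCL12 libraries at Day 8. For saline, no day is given in the labels. Neither the labels nor the methods say whether the libraries of a group came from separate animals, so the tests measure the spread between libraries, which may be technical in part. The table of Day 8 replicate 1 carries a Day 3 name and was placed by its label. In bulk tissue, fewer cells that use a gene cannot be told apart from less RNA per cell.

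Proteins that are secreted or held in membranes enter the ER through the translocon and are folded there by chaperones such as BiP, the product of Hspa5, and by protein disulfide isomerases. When unfolded proteins build up, the sensors IRE1, PERK and ATF6, encoded by Ern1, Eif2ak3 and Atf6, start the unfolded protein response. Its transcription factors XBP1, cleaved ATF6 and ATF4 raise chaperones, genes of ER-associated degradation and genes of amino acid supply. The uterus is a secretory tissue whose glands release large amounts of protein under ovarian hormones.

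Promoter sequences show an element that some of these genes have in common apart from their levels. RefSeq promoter windows of 250 bases before to 50 bases after the transcript start (build GRCm38.p6) were matched for 29 of the 34 genes, and not for Manf, Hyou1, Atf6, Sec61a1 and Ssr2. The ER stress response element (ERSE), searched on both strands as CCAAT and CCACG separated by 9 bases, was present in 8 of the 29 windows (27.6%) against 37 of all 27025 gene windows (0.137%). The 8 genes were Hspa5, Hsp90b1, Calr, Canx, Dnajc3, Creld2, Pdia6 and Syvn1. The related element ERSE-II, searched as ATTGG and CCACG separated by 1 base, was present in Herpud1 and, after the transcript start, in Dnajb11, against 0.0444% of all windows. The element bound by ATF4 (TGATG directly followed by CAA) was present in Herpud1 and Chac1, against 1.03% of all windows. The element UPRE (TGACG directly followed by TGG) was present in 0 of the 29 windows and in 0.714% of all windows. A match describes these letters in these windows only. The genes were listed for their part in ER folding and stress, so the higher share of an ER stress element is no independent result. The stretches of Hspa5 (chr2:34771890-34772089, plus strand), Hsp90b1 (chr10:86705525-86705664, minus strand), Creld2 (chr15:88819494-88819563, plus strand), Herpud1 (chr8:94386347-94386416, plus strand) and Syvn1 (chr19:6046506-6046575, plus strand) are printed from 5′ to 3′ along the gene, because their levels are described below and they show the element once, as a pair, on the opposite strand, as ERSE-II and close to the start. Capitals mark the ERSE, or in Herpud1 the ERSE-II.
Hspa5: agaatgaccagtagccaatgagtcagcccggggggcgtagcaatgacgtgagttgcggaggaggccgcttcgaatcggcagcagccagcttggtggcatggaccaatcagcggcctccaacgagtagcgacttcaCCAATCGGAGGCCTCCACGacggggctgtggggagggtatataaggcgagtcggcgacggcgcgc
Hsp90b1: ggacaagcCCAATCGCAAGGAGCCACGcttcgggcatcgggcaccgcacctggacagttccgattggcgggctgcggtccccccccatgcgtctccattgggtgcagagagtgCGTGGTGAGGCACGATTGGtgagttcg
Creld2: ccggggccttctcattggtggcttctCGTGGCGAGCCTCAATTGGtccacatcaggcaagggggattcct
Herpud1: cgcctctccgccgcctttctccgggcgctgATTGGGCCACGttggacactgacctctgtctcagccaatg
Syvn1: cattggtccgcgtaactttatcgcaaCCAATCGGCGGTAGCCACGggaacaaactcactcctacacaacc

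**Figure D1:**
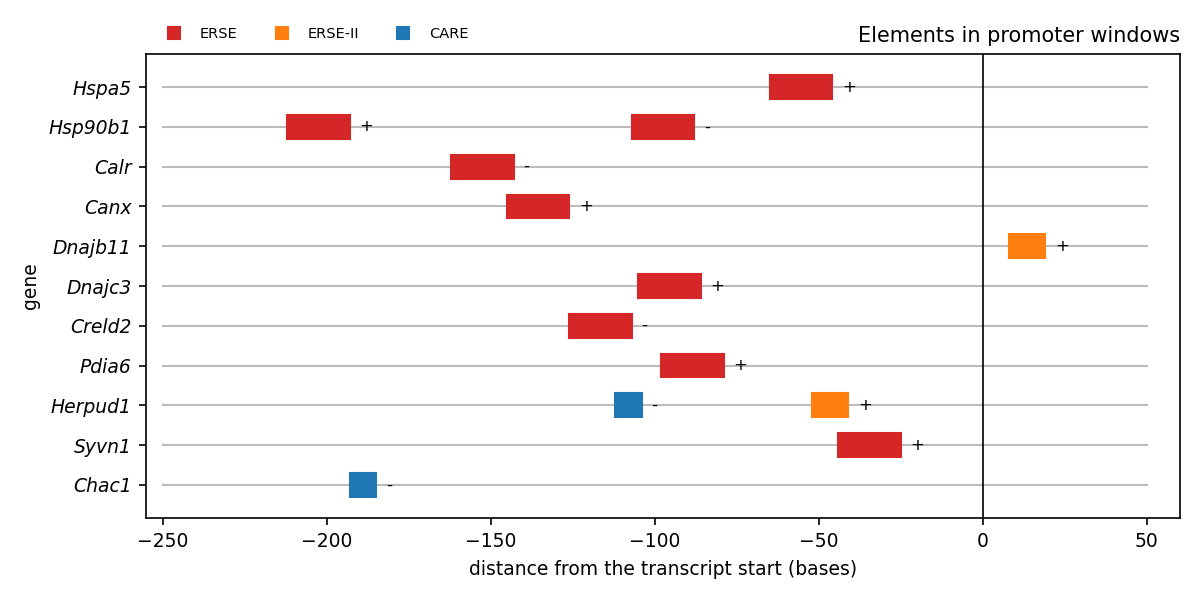
Positions of ERSE, ERSE-II and the ATF4 element (CARE) in the promoter windows that hold one, as the distance from the transcript start in bases, with the strand of the element beside each block. Hsp90b1 holds 2 ERSE, and the ERSE-II of Dnajb11 lies after the start.

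The 6 libraries with counts held 6908790 to 12308982 counts, and 3 counts, taken as the floor, correspond to 0.244 to 0.434 CPM, the count scaled to a common library total, which covers counting error only. Levels are CPM scaled by TMM factors over all 7 libraries. All 7 uterus markers were found, and their summed level was 1070 to 1801 CPM. Libraries stood apart within groups. Over 14876 genes, the 2 saline libraries correlated at r = 0.914 on the log2 scale and the 2 Day 3 libraries at r = 0.982. Day 8 replicate 1 correlated at 0.962 and 0.964 with the Day 3 libraries, and at 0.914 and 0.916 with the other Day 8 libraries. These libraries also differed in marker genes. The summed level of 9 uterine gland markers was 2415 and 3240 CPM in Day 8 replicates 2 and 3 and between 83.9 and 276 CPM in the other 5 libraries. Most of the higher sums came from Spink1 (1281 and 1978 CPM), Prss29 (634 and 915 CPM) and Prss28 (124 and 188.5 CPM). Cxcl15 was at 10.3 and 19.7 CPM there and at 31.7 and 17.15 CPM in saline. At Day 8 against saline, the log2 fold change was above 0 in 6 of the 9 and below 0 in 3. The summed level of 12 ovary markers was 3716 CPM in Day 8 replicate 2, 1123 CPM in saline replicate 2 and at most 185 CPM in the others. The summed level of 8 adipocyte markers was 1144 and 2929 CPM in saline, 3513 and 414 CPM in Day 3 and 328 to 492 CPM in Day 8. All 8 were called lower at Day 8 against saline by the thresholds given below, and 1 was called lower at Day 3. Of 5 tested neutrophil markers, 4 were called lower at Day 8 and 3 at Day 3, and of 11 tested ovary markers 6 were called lower and 1 higher at Day 3. The part of these markers in the values of the ER genes was not tested.

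Within groups, the ER genes differed between the 2 saline libraries. Over the 32 ER genes that reached 1 CPM in at least 2 libraries, the median deviation from the gene mean (log2) was -0.34 in saline replicate 1 and 0.09 in saline replicate 2, 0.33 and 0.21 in the Day 3 libraries and -0.23, -0.04 and 0.01 in the Day 8 libraries. Saline replicate 1 was the lowest of the 7 libraries in 18 of these 32 ER genes, while it was the lowest in 25.3% of all 14876 such genes. Day 3 replicate 1 was the highest library in 15 of the 32, against 17.6% of all genes. In this set 9 genes were at least 2-fold lower in saline replicate 1 than in saline replicate 2, and 1 gene, Trib3, was at least 2-fold higher. The shares over all genes were 13.6% lower and 9.61% higher. The median difference was -0.45 on the log2 scale over the 32 ER genes and -0.03 over all genes. Manf, an ER-resident survival factor, was at 57.5 CPM in saline replicate 1 and 247 CPM in saline replicate 2. Sec61b, a subunit of the translocation channel, was at 96.2 and 328 CPM, but 46.8% of the 50-base words at its 3′ end are shared with other genes, so its counts are uncertain. Xbp1 was at 31.6 and 122 CPM. In other genes the order was the opposite, with Sel1l at 111 and 73.5 CPM and Hyou1 at 69.1 and 55.1 CPM.

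**Figure D2:**
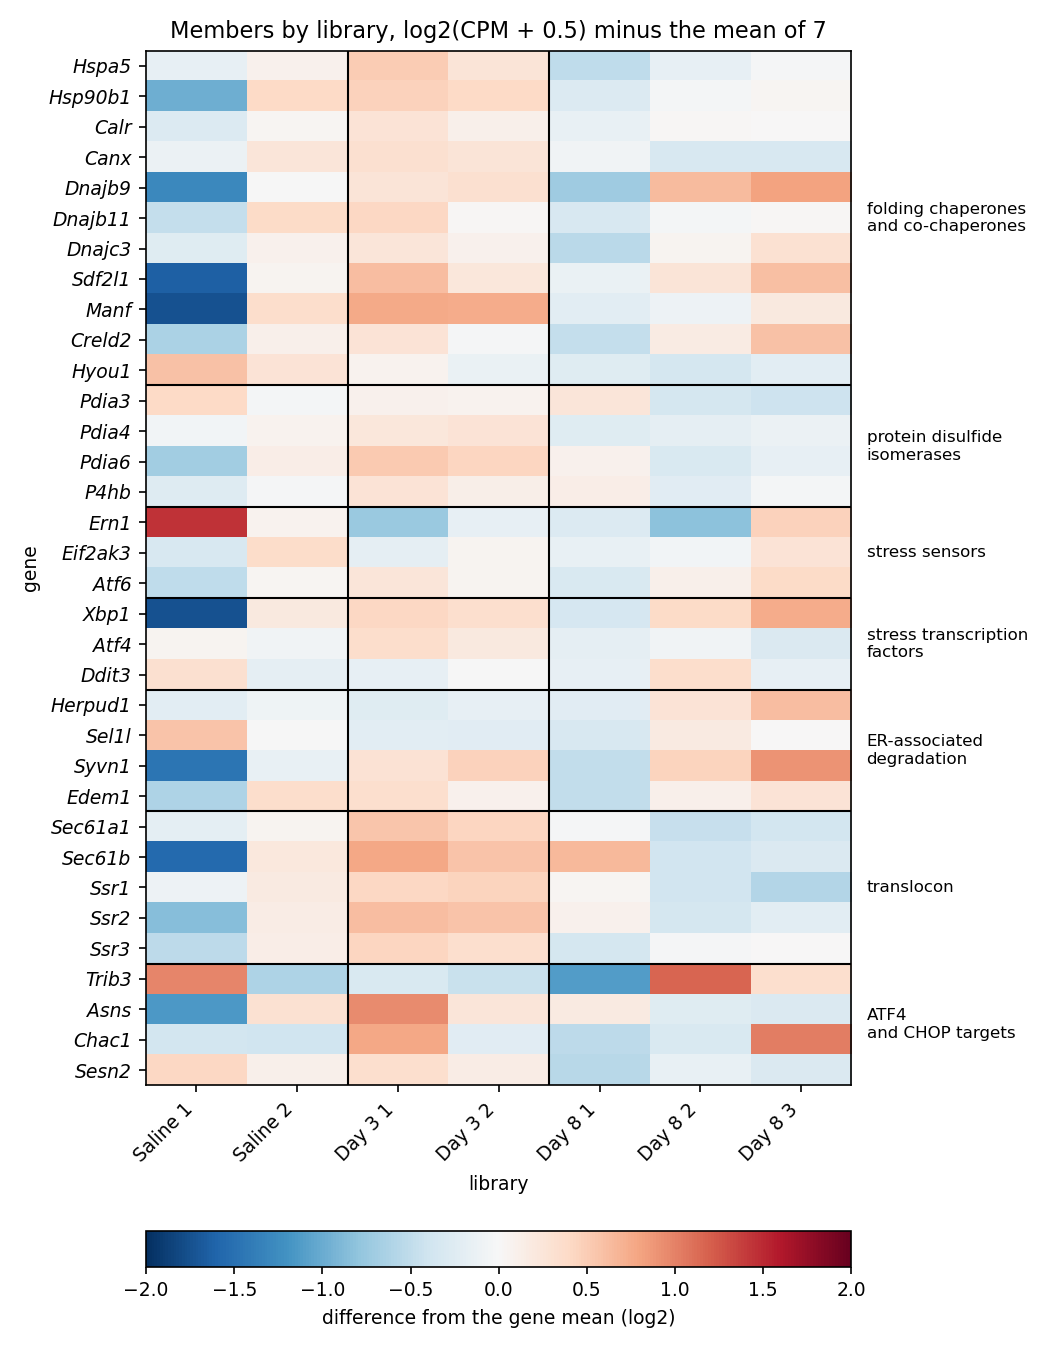
Level of each of the 34 ER genes in each library, as log2(CPM + 0.5) minus the mean of the 7 libraries, with genes in rows by role and libraries in columns. Saline replicate 1 is the lowest library in 18 of 32 genes, and Day 3 replicate 1 the highest in 15.

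The difference between the saline libraries went with transcript length. All genes were divided into 5 equal classes by the median length of their coding transcripts in GENCODE M21. The median deviation of saline replicate 1 from the gene means was -0.25 in the shortest class and 0.27 in the longest (log2). Saline replicate 2 stayed between -0.01 and 0.04. The order was the opposite in Day 3 replicate 1 (0.19 in the shortest and -0.06 in the longest class), Day 3 replicate 2 (0.09 and -0.10) and Day 8 replicate 1 (0.15 and -0.15). Manf, Sec61b and Ssr2, described below at Day 3, have short transcripts. In the ER genes, the median difference of saline replicate 1 from saline replicate 2 was -1.45 in the 5 genes of the shortest class and -0.35 in the 5 genes of the longest. For all genes these values were -0.23 and 0.23. In each of the 5 length classes the median of the ER genes was below that of all genes, and the part of length in the group comparisons was not tested.

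**Figure D3:**
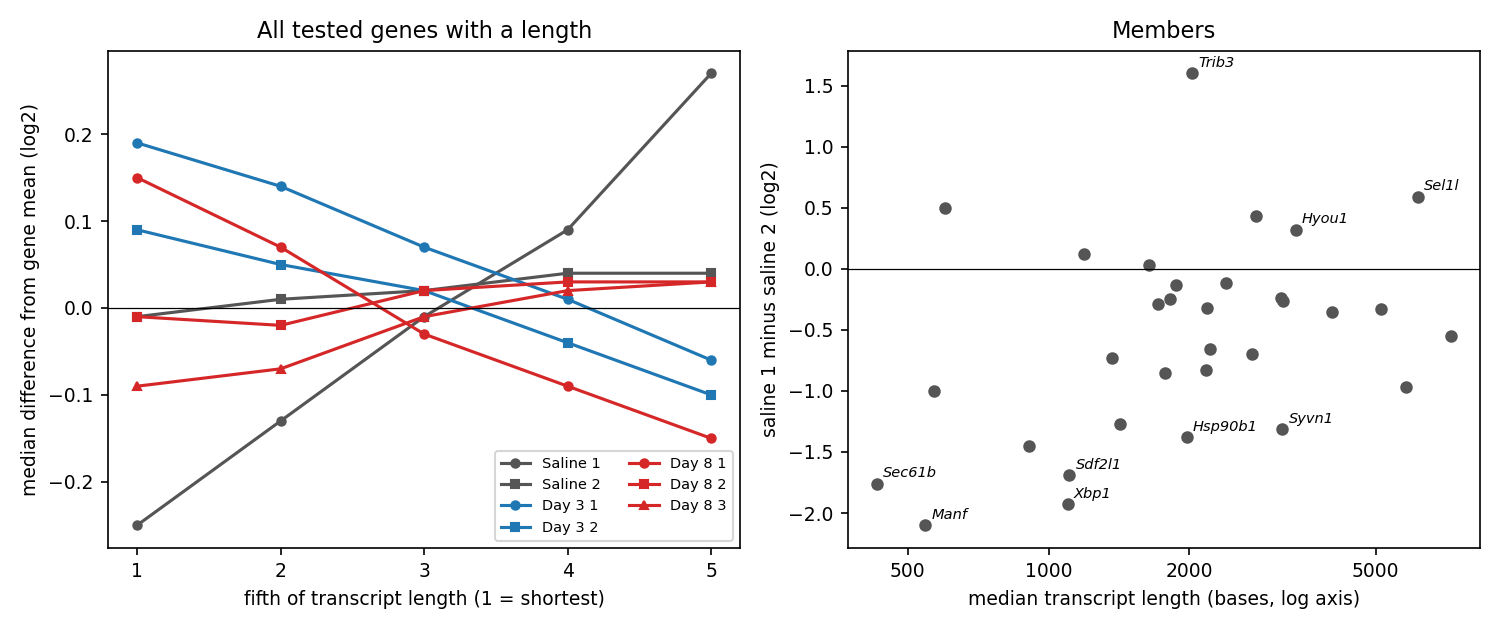
Left, median difference of each library from the gene mean (log2) over all genes by class of transcript length (1 is the shortest), where saline replicate 1 runs from -0.25 to 0.27. Right, log2 difference of saline replicate 1 from saline replicate 2 for each of 32 ER genes against its median transcript length in bases on a log axis, where Manf, at -2.10, is the lowest.

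The first comparison asks how the uterus differed from saline 8 days after CXCL12. None of the ER genes reached a 2-fold change with an unadjusted P under 0.05, the fold and P thresholds of the study's list of changed genes. Its methods also name a false discovery rate of 0.1, which is applied separately below. By edgeR, 0 of 33 tested ER genes were called, beside 2.94% of all 15388 genes, and DESeq2 also called 0 and passed 1 at the unadjusted threshold. At an unadjusted P under 0.05 alone, 1 ER gene passed, beside 4.28% of all genes. No gene of any kind passed a Benjamini-Hochberg adjusted p of 0.1 in edgeR, while DESeq2 passed 49 genes and 0 ER genes. The median log2 fold change was 0.05 over the ER genes and -0.01 over all genes, with 20 ER genes above and 13 below 0. On the level scale, 0 ER genes had all Day 8 libraries above both saline libraries, beside 9.08% of all genes, and 3 had all of them below, beside 10.1%.

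Hyou1, a chaperone that exchanges nucleotides on BiP, was the ER gene that passed the unadjusted threshold. It was at 69.1 and 55.1 CPM in saline and at 38.5, 35.7 and 39.3 CPM in Day 8. The groups did not overlap. Its log2 fold change was -0.71 with an SE of 0.26, an unadjusted P of 0.029 and an adjusted p of 0.96 by edgeR. The unadjusted P was 0.089 without saline replicate 1, 0.13 without Day 8 replicate 2 and 0.083 without Day 8 replicate 3. Pdia4, a disulfide isomerase, was at 90.3 and 98.2 CPM in saline and at 79.5, 83.0 and 86.3 CPM in Day 8. Atf4, the transcription factor of the PERK branch, was at 180 and 166 CPM in saline and at 153, 165.7 and 142 CPM in Day 8. These groups did not overlap by narrow margins, and their log2 fold changes were -0.18 and -0.17 with SEs of 0.25 each.

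Other genes separated the Day 8 libraries from each other. Syvn1, the ubiquitin ligase of ER-associated degradation, was at 8.96 and 22.9 CPM in saline and at 17.9, 34.7 and 47.9 CPM in Day 8. Dnajb9, a BiP co-chaperone, was at 8.11 and 20.3 CPM in saline and at 12.4, 32.0 and 36.3 CPM in Day 8. Xbp1 was at 84.2, 140 and 178 CPM in Day 8. In each of these genes Day 8 replicate 1 lay below saline replicate 2, and replicates 2 and 3 lay above both saline libraries. The log2 fold changes were 1.07 with an SE of 0.55 for Syvn1, 0.92 with an SE of 0.58 for Dnajb9 and 0.81 with an SE of 0.59 for Xbp1, with unadjusted P of 0.091, 0.15 and 0.21 by edgeR. Herpud1 was at 48.8 and 53.3 CPM in saline and at 48.2, 68.1 and 86.8 CPM in Day 8, and Creld2 at 18.7, 29.6 and 39.7 CPM in Day 8. The uterine gland markers summed to 114 CPM in Day 8 replicate 1 and to 2415 and 3240 CPM in the others, mostly from Spink1, Prss28 and Prss29. Their part was not tested. Without Day 8 replicate 1, Dnajb9 and Syvn1 were called, beside 6.69% of all genes, and 8 ER genes lay above saline without overlap instead of 0, beside 20.5% of all genes.

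The calls changed with the saline library left out. With 1 saline library the spread came from the other groups, and that library was assumed to vary like them. Without saline replicate 2, edgeR called Xbp1, Sdf2l1, Syvn1, Sec61b, Asns and Manf, which is 6 ER genes, beside 10% of all genes. Without saline replicate 1 it called 0. The median log2 fold change was 0.39 without saline replicate 2 and -0.12 without saline replicate 1. The sign of the median thus differed with the saline library left out.

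**Figure D4:**
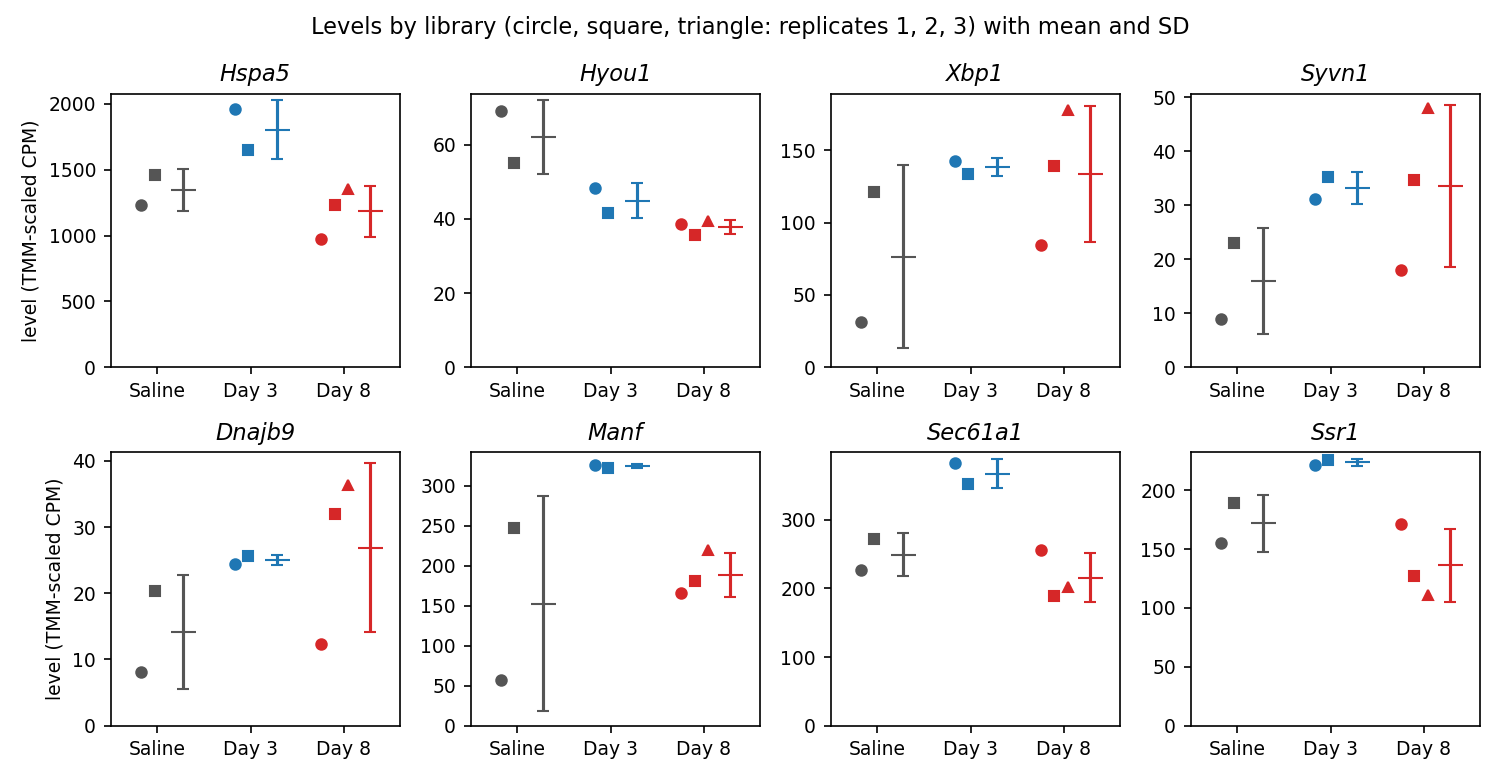
Levels of 8 ER genes in every library as TMM-scaled CPM, with saline in grey, Day 3 in blue and Day 8 in red, replicates 1, 2 and 3 as circle, square and triangle, and the mean and SD beside them. In Xbp1, Syvn1 and Dnajb9 the Day 8 libraries span more than the distance between groups, and in Sec61a1 and Ssr1 the Day 3 libraries are above all others.

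The second comparison asks how the uterus differed from saline 3 days after infusion. It was tested by limma on quantile-normalized log2 values, because Day 3 replicate 1 was deposited on the log2 scale and not as counts. Of 32 tested ER genes 0 were called, beside 4.65% of 14876 genes, and 1 passed an unadjusted P under 0.05, beside 7.5% of genes. edgeR on counts estimated for that library also called 0 and passed 1. No gene passed an adjusted p of 0.1. The median log2 fold change was 0.19 over the ER genes and 0.01 over all genes, with 21 ER genes above and 11 at or below 0. On the level scale, 19 of 32 ER genes had both Day 3 libraries above both saline libraries, beside 26.8% of all genes, and 2, Hyou1 and Sel1l, had both below, beside 21.7%. These counts changed with the scale: on CPM without TMM factors they were 6 above and 5 below, beside 11.9% and 39.9% of all genes. On quantile-normalized values they were 11 above and 5 below, beside 24.1% and 22.2%.

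All 5 translocon genes were among the 19. They were Sec61a1 and Sec61b of the channel and Ssr1, Ssr2 and Ssr3 of the translocon-associated protein complex. Ssr2 was at 66.9 and 135 CPM in saline and at 187 and 181 CPM in Day 3. It was the ER gene with an unadjusted P under 0.05, with a log2 fold change of 0.75, an SE of 0.32, an unadjusted P of 0.048 and an adjusted p of 0.62 by limma. Without saline replicate 1 its log2 fold change was 0.28, and without saline replicate 2 it was 1.23. Sec61a1 was at 227 and 271 CPM in saline and at 382 and 352 CPM in Day 3. Ssr3 was at 182 and 288 CPM in saline and at 351 and 332 CPM in Day 3. For both genes the Day 3 libraries lay above saline without overlap, and their log2 fold changes by limma were 0.26 with an SE of 0.21 and 0.27 with an SE of 0.26.

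Among chaperones and their partners, Manf was at 326 and 323 CPM in Day 3, against 57.5 and 247 CPM in saline. Sdf2l1, which works with BiP co-chaperones, was at 15.4 and 50.6 CPM in saline and at 75.1 and 57.1 CPM in Day 3. Hspa5 was at 1235 and 1457 CPM in saline and at 1961 and 1647 CPM in Day 3. The groups did not overlap in any of the 3. Manf had a log2 fold change of 1.22 with an SE of 0.57 and Sdf2l1 of 1.13 with an SE of 0.51, with unadjusted P of 0.063 and 0.057 by limma. Without saline replicate 1 these log2 fold changes were 0.18 and 0.31, and without saline replicate 2 they were 2.27 and 1.96. For Hspa5 the quantile-normalized value was -0.05, and edgeR on estimated counts gave 0.37, so its direction depended on the scale. The same held for Calr, at -0.13 and 0.25, and for Canx, at -0.12 and 0.16. Syvn1 was at 31.1 and 35.2 CPM in Day 3, with a log2 fold change of 1.16 and an SE of 0.53, which was 0.54 without saline replicate 1 and 1.78 without saline replicate 2. Sel1l, its partner in degradation, was at 111 and 73.5 CPM in saline and at 64.2 and 63.5 CPM in Day 3. The sensor gene Ern1 was between 0.0821 and 2.30 CPM in the 7 libraries.

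As at Day 8, the calls changed with the saline library left out, and with 1 saline library the spread again came from the other groups. Without saline replicate 2, limma called Xbp1, Dnajb9, Sdf2l1, Syvn1, Ssr2, Sec61b, Asns and Manf, which is 8 ER genes, beside 19.3% of all genes, and 11 ER genes among 2351 genes passed an adjusted p of 0.1. Without saline replicate 1, 0 were called. Without Day 8 replicate 1, which enters only through the shared spread, 1 ER gene (Syvn1) was called, beside 5.16% of all genes. The median log2 fold change of the ER genes was 0.43 without saline replicate 2 and 0.02 without saline replicate 1.

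**Figure D5:**
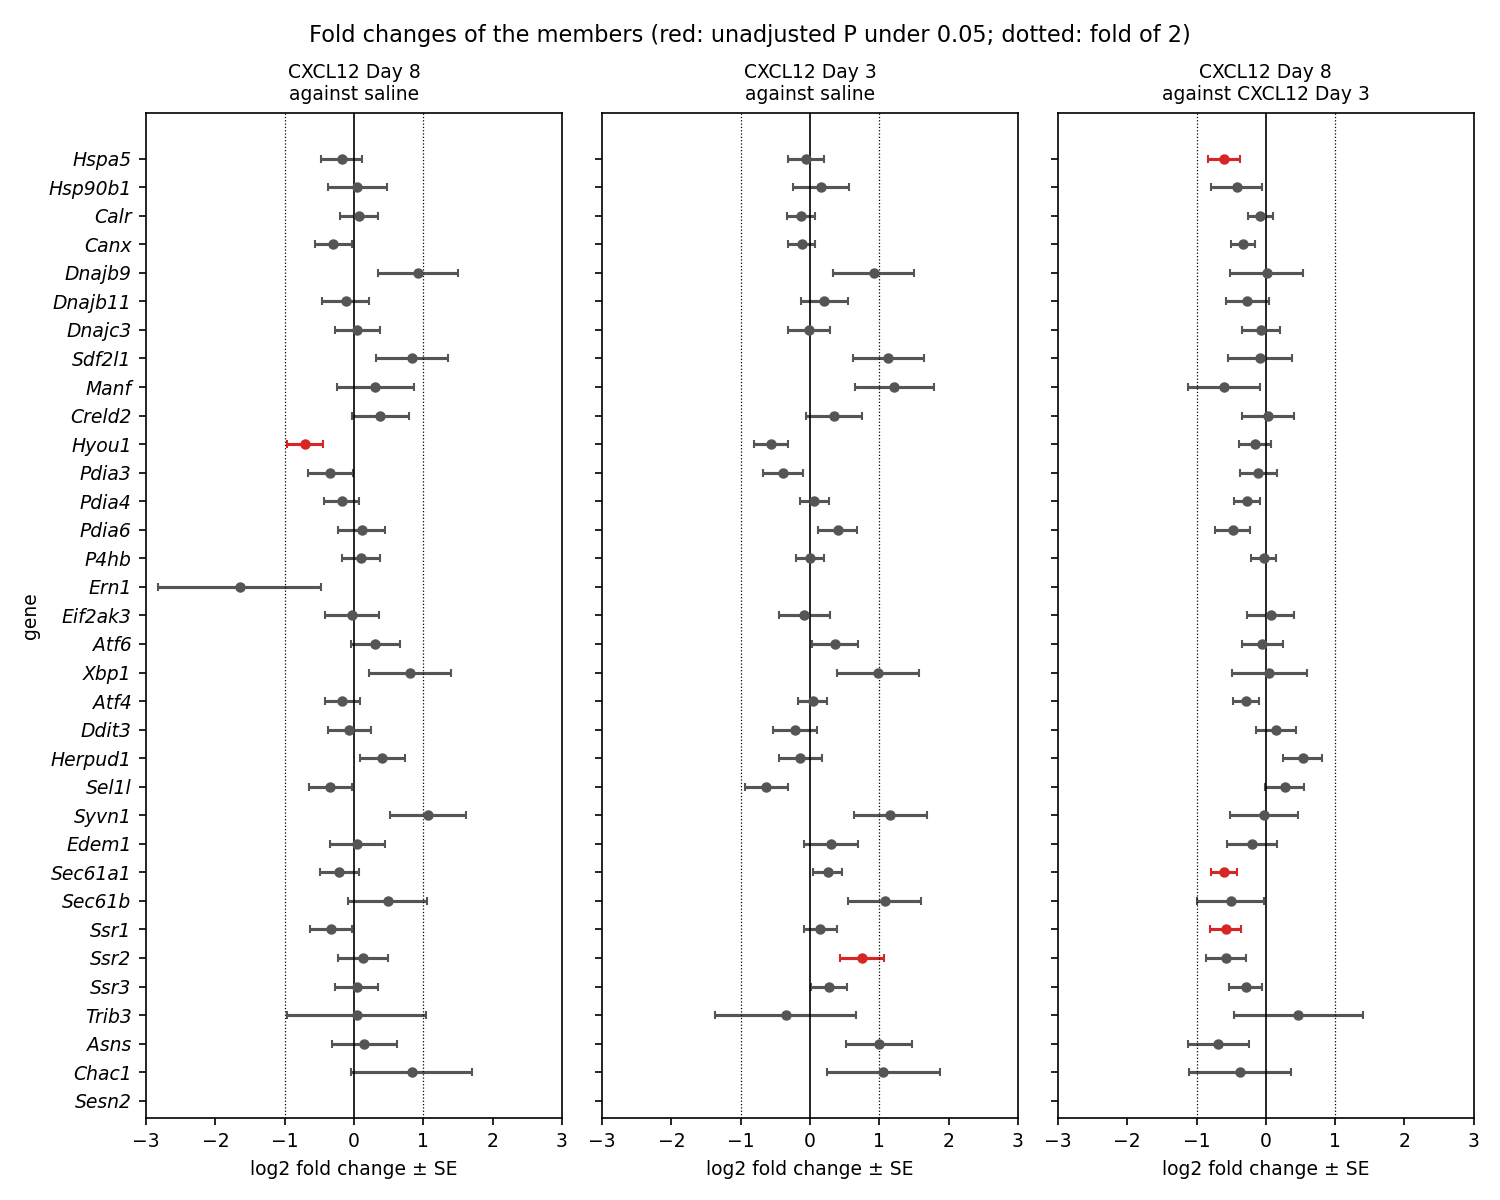
Log2 fold change with SE of each ER gene in each comparison, by edgeR for Day 8 against saline and by limma for the others, with genes of unadjusted P under 0.05 in red and a 2-fold change dotted. Red marks Hyou1 at -0.71, Ssr2 at 0.75, and Hspa5, Sec61a1 and Ssr1 at -0.60, -0.60 and -0.58, and genes that were not tested have no point.

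The third comparison sets the CXCL12 groups against each other, Day 8 against Day 3. Of 32 ER genes 0 were called by limma, beside 4.57% of all genes, and 3 passed an unadjusted P under 0.05, beside 7.09% of all genes. edgeR on estimated counts also called 0 and passed 3. The adjusted p threshold of 0.1 was passed by 0 genes, and among ER genes the lowest was 0.69. The median log2 fold change was -0.18 over the ER genes and 0 over all genes, with 24 ER genes below 0 and 8 above. On the level scale, 15 of 32 ER genes had all Day 8 libraries below both Day 3 libraries, beside 18.8% of all genes, and 0 had all of them above, beside 13.8%.

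The 3 genes that passed were lower in Day 8. Hspa5 was at 1961 and 1647 CPM in Day 3 and at 971, 1229 and 1352 CPM in Day 8. Sec61a1 was at 382 and 352 CPM in Day 3 and at 256, 189 and 203 CPM in Day 8. Ssr1 was at 222 and 226 CPM in Day 3 and at 171, 127 and 111 CPM in Day 8. None of these groups overlapped. The log2 fold changes were -0.60 with an SE of 0.23 for Hspa5, -0.60 with an SE of 0.19 for Sec61a1 and -0.58 with an SE of 0.22 for Ssr1, with unadjusted P of 0.033, 0.015 and 0.032 and adjusted p of 0.70, 0.69 and 0.70 by limma. Leaving out either Day 3 library gave an unadjusted P of 0.14 and 0.086 for Hspa5, 0.09 and 0.086 for Sec61a1 and 0.092 and 0.17 for Ssr1. Without Day 8 replicate 1, whose table carries a Day 3 name, Hspa5 was at -0.39 with an unadjusted P of 0.052. Without Day 8 replicate 2 the unadjusted P of the 3 genes was 0.053, 0.058 and 0.086, and without Day 8 replicate 3 that of Ssr1 was 0.11. Hsp90b1, the ER form of the heat shock protein 90 family, was at 1697 and 1619 CPM in Day 3 and at 1017, 1204 and 1259 CPM in Day 8, with a log2 fold change of -0.42 and an SE of 0.37, or -0.27 without Day 8 replicate 1. Pdia6 was at 796 and 747 CPM in Day 3 and at 591, 452 and 494 CPM in Day 8, with -0.48 and an SE of 0.25. Asns, asparagine synthetase, was at 35.8 and 21.8 CPM in Day 3 and at 20.7, 15.4 and 14.9 CPM in Day 8, with -0.69 and an SE of 0.44, or -0.39 without Day 3 replicate 1. The summed level of the oestrogen-induced uterine genes was also lower, at 2535 and 2171 CPM in Day 3 and at 1755, 563 and 677 CPM in Day 8. Of 18 tested, 14 had a log2 fold change below 0 and 4 above 0. The progesterone-induced uterine genes went the other way, summing to 515 and 541 CPM in Day 3 and to 675, 1194 and 1785 CPM in Day 8. The part of either list was not tested.

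The 8 genes with an ERSE and the 21 matched genes without one were set side by side. The 21 include Herpud1 and Dnajb11, which hold the related ERSE-II. At Day 8 against saline the median log2 fold change was 0.06 with the element and 0.04 without it, and at Day 3 it was 0.07 and 0.15. Between Day 8 and Day 3 it was -0.21 and -0.11, with 7 of 8 tested genes with the element, 12 of 19 without it and 24 of all 32 ER genes below 0. These medians are descriptions and were not tested.

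The remaining members varied as follows. Sesn2 was at 0 to 0.484 CPM and was not tested. It had 0 counts in Day 8 replicate 1, where 3 counts correspond to 0.312 CPM before scaling by TMM factors and to 0.347 CPM after it. Trib3, a pseudokinase induced by CHOP, was at 0.463 to 4.19 CPM, and Chac1, which degrades glutathione, was at 0.926 to 3.66 CPM. Ddit3, the gene of CHOP, was at 29.8 to 43.0 CPM, and its log2 fold changes were -0.07 at Day 8 and -0.22 at Day 3 against saline. Eif2ak3 was at 6.90 to 11.5 CPM and Atf6 at 14.8 to 28.0 CPM. Exons of Manf, Pdia6, Ddit3, Syvn1 and Sec61a1 overlap a gene on the other strand. The sources used here do not say whether counting used strand, so reads of those gene pairs may have been mixed.

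Further genes were taken from 7 lists of ER pathways, of ER to Golgi transport (40 genes) and of cytosolic heat shock proteins (21 genes). These 213 genes in all, 209 of them tested, were examined in the same way. In the Day 8 comparison with saline, edgeR called 0, beside 2.94% of all genes, and 2 passed an unadjusted P under 0.05, beside 4.28%. At Day 3 against saline 13 were called by limma, which is 6.22%, beside 4.65% of all genes, and all 13 were higher. The share over all genes holds both directions, with 295 genes called higher and 397 lower. The 13 genes had the following values among them. They included the collagen chaperone Serpinh1, at 78.2 and 380 CPM in saline and at 572 and 620 CPM in Day 3, with a log2 fold change of 1.54 and an SE of 0.60. They also included Creb3l1, an ER-bound transcription factor, at 35.2 and 67.4 CPM in saline and at 111 and 124 CPM in Day 3, with 1.12 and an SE of 0.31. Of the 30 tested genes of translocation and N-glycosylation, 4 were called, beside the same 4.65%, and the median log2 fold change was 0.70, beside 0.01 over all genes. The 4, Sec61g, Dad1, Ost4 and Tmem258, were at 261, 77.8, 12.2 and 148 CPM in saline replicate 1. In saline replicate 2 they were at 540, 161, 120 and 326 CPM. In Day 3 they were at 1042, 268.5, 183.5 and 577.6 CPM in replicate 1 and at 969.6, 256.1, 187.8 and 518.5 CPM in replicate 2. Among 39 tested further ATF4 target genes 4 were also called higher, and the median log2 fold change was 0.26. These were Psph, Aldh1l2, Atf5 and Stc2. Fits without a single saline library are not given for the 13 called genes, so their dependence on saline replicate 1 was not tested. Saline replicate 1 was below saline replicate 2 in all of the 13 but Atf5. Atf5 was at 37.9 and 31.9 CPM in saline and at 73.5 and 81.0 CPM in Day 3. At Day 8 against Day 3, 2 of the 209 tested genes were called higher and 6 lower, which is 3.83%, beside 4.57% of all genes. Creb3l1 was among the lower, at 51.5, 52.4 and 54.5 CPM in Day 8, with -1.0 and an SE of 0.28. None of these genes passed an adjusted p of 0.1.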

How the data were processed

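RNA of whole uterine tissue was sequenced in 7 QuantSeq 3′ libraries (2 saline, 2 CXCL12 Day 3, 3 CXCL12 Day 8). Reads were aligned by the authors using Bowtie2, and both unique and multiple alignments were counted with Bedtools. Quantile normalization was done in edgeR. The submitters' processing notes name Bowtie2 and edgeR without versions and the builds hg19 and mm10, so the build is not settled. For 6 libraries the authors deposited counts per gene, not normalized. For Day 3 replicate 1 they deposited log2 values of normalized counts plus 1. When the logarithm was undone and a factor of 1.0515 divided out, 97.2% of 3661 low values lay within 0.1 of a whole number, where chance gives 20%.

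The 34 genes and the gene lists were chosen with earlier results of these data known. For Day 8 against saline, edgeR 4.0.16 was used (quasi-likelihood, TMM, filterByExpr) over the 6 count libraries, with 3 groups in 1 fit and 3 residual degrees of freedom. Comparisons with Day 3 used limma 3.58.1 (eBayes with trend) on log2(normalized count + 1) values of all 7 libraries, scaled to 1 library size and quantile-normalized, with genes at 1 CPM or more in at least 2 libraries and 4 residual degrees of freedom. Fold changes on that scale understate changes of low genes. A gene was called at a 2-fold change with unadjusted P under 0.05, and separately at a Benjamini-Hochberg adjusted p of 0.1 over all genes tested. SEs of edgeR values are the fold change divided by the root of F. Levels are CPM scaled by TMM over 7 libraries, Day 3 replicate 1 after its log2 was undone. Alternatives used DESeq2 1.42.0 in R 4.3.3, and the fits were tested on simulated data.

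All 34 genes could be named, with per-library values for those whose groups did not overlap or that were called, and other pathway genes only when called; those printed in the text, and further values of genes that split the saline or Day 8 libraries, were picked with values in view. Groups share replicate numbers in the labels, but no source says that a number marks an animal. Chi-square statistics of 22.3 to 76.9 per gene between replicates exceeded counting noise, so each library was counted once. Promoter windows are from RefSeq (GRCm38.p6), and transcripts from GENCODE M21 gave lengths and shared sequence. The build of the counts being unsettled, no coordinates of counts are given.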

Additional observations from a re-analysis of the deposited data

Results flagged for a closer look

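In 4 genes both Day 3 libraries lay above the mean of the saline libraries and all 3 Day 8 libraries lay below it. This was seen on the log2 CPM scale, and the share of all genes with the same pattern was not counted. In Canx and Ssr1 the Day 8 libraries overlapped saline. There Day 8 replicate 1 (344.5 and 170.9 CPM) lay above saline replicate 1 (334.6 and 154.8 CPM). Each day was tested against saline, and none of these genes had an unadjusted P under 0.05. By edgeR at Day 8 it was 0.30 for Canx, 0.49 for Pdia4, 0.53 for Atf4 and 0.30 for Ssr1. By limma at Day 3 it was 0.57, 0.79, 0.86 and 0.57 in the same order. The difference in direction between the days was not itself tested. The difference of the mean at Day 8 from that at Day 3, on the log2 CPM scale, was -0.53 for Canx, -0.43 for Pdia4, -0.45 for Atf4 and -0.74 for Ssr1. Canx and Ssr1 act at the ER membrane as a lectin chaperone and a translocon-associated subunit, Pdia4 is a disulfide isomerase, and Atf4 encodes a stress transcription factor. Against the saline mean, Ssr1 was at 0.37 and 0.40 in Day 3 and at 0, -0.43 and -0.62 in Day 8, where the value of Day 8 replicate 1 is just below 0 before rounding. On quantile-normalized values limma gave log2 fold changes of Day 8 against Day 3 of -0.33 for Canx, -0.27 for Pdia4, -0.29 for Atf4 and -0.58 for Ssr1, with adjusted p of 0.72, 0.75, 0.75 and 0.70. The Day 3 side of the pattern depended on the scale, since Canx was at -0.12 against saline by limma.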

How the results depend on the processing

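Of 584 alternative values of 39 single results, 569 kept their direction and 9 of these passed the threshold only under the alternative. The 39 results are the tested ER genes whose groups did not overlap in a comparison. They were chosen by the same data, so the share that kept its direction is no independent result and does not describe all ER genes. For Day 8 against saline, 1 ER gene (Syvn1) instead of 0 was called by limma on quantile-normalized values, beside 3.75% of all genes. Leaving out single libraries gave 0 to 6 called, beside 1.5% to 10% of all genes, and a median log2 fold change from -0.12 to 0.39, both highest without saline replicate 2, with 2 called without Day 8 replicate 1. For Day 3 against saline, leaving out single libraries gave 0 to 8 called, beside 1.76% to 19.3%, and a median from 0.02 to 0.43. For Day 8 against Day 3, 1 gene (Sesn2) was called without a filter on low values, beside 3.92%. A group left with 1 library took its spread from the other groups. Scaling without quantile normalization put the median of all genes at Day 3 at -0.26 instead of 0.01.

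At Day 3 against saline, the direction turned for Hspa5 (0.12 without quantile normalization, 0.37 by edgeR on estimated counts, 0 without Day 3 replicate 2, lowest -0.11 without Day 3 replicate 1), Calr (0.01 and 0.25 under the same 2 settings), Canx (0.16 by edgeR), Pdia4 (-0.05 without quantile normalization, -0.01 without Day 3 replicate 2, highest 0.13 without Day 3 replicate 1), P4hb (-0.03 without saline replicate 1, -0.01 without Day 3 replicate 1, 0 without Day 8 replicate 1, highest 0.03 without saline replicate 2), Atf4 (-0.02 without quantile normalization, -0.10 without saline replicate 2, highest 0.17 without saline replicate 1) and Ssr3 (0 without saline replicate 1, highest 0.55 without saline replicate 2). Between Day 8 and Day 3 it turned for Calr (0 without Day 8 replicate 1, lowest -0.13 without Day 8 replicate 2). The cause was not tested.

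Counts of genes whose groups do not overlap were repeated on other scales and without single libraries, which was chosen after seeing the data. At Day 8 against saline, genes below saline were 9 on CPM without TMM and 7 on quantile-normalized values instead of 3, beside 22.6% and 9.48% of all genes, and single libraries left out gave 3 to 17 below, beside 13.4% to 30.8%, and 0 to 18 above, beside 12.4% to 30.3%. At Day 3 against saline, genes above were 6 and 11 instead of 19 on these scales, beside 11.9% and 24.1%, genes below were 5 and 5 instead of 2, beside 39.9% and 22.2%, and single libraries left out gave 2 to 5 below, beside 29.3% to 41.9%. At Day 8 against Day 3, single libraries left out gave 0 to 4 above, beside 17.6% to 29.8%.

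With the replicate number as a block, ER genes called were 0 at Day 8, 1 at Day 3 (Syvn1, 1.16) and 0 for Day 8 against Day 3, beside 1.02%, 3.85% and 2.86% of all genes, and all genes called at Day 8 fell from 453 to 157. The libraries share only a number, with fewer than 3 pairs against Day 3. Deviations of same-numbered libraries correlated at -0.08 between saline and Day 3 and at -0.19 between saline and Day 8. Depth limits Ern1, Sesn2, Trib3 and Chac1, which lay near the floor of 3 counts or within a few CPM of it.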
